A study of Homo sapiens with 8 samples.

Results

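The tumour necrosis factor (TNF) family was followed in L363 cells treated with MLN120B, a small-molecule inhibitor of IKKβ: its ligands, its receptors, the TRAF adaptors, and the MAP3K and IKK kinases below them. L363 is an established human plasma cell line, labelled as multiple myeloma from bone marrow. Genes were taken by symbol from the platform's probe annotation: those starting with TNFRSF, TNFSF, TRAF, MAP3K or IKBK, and TNF, LTA, LTB, LTBR, CD40, CD27, CD70, FAS and TRADD, when values were present on 4 or more of the 8 arrays. The rule matched 49 annotated genes and kept 47 of the 4604 genes annotated on the array: 11 ligands, 19 receptors, 6 TRAFs and TRAF-binding adaptors, 9 MAP3Ks and 2 IKK genes. Of these 47, 18 had values on all 8 arrays, 9 on 7, 9 on 6, 8 on 5 and 3 on 4. At the edge of the rule, IKBKG, MAP3K10 and TRAF5 had values on 4 arrays, TNFRSF13C had values on 3 (0.27 at 12 h and -0.062 at 24 h in sample 2, and -0.46 at 24 h in sample 3) and TRAFD1 had a value on 1, so the last pair was left out. TRADD, TRAF2, TNFRSF13B and IKBKB were not analysed here.

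The study exposed the cells to 12.5 µM MLN120B at 37 °C for 8 h (2 samples), 12 h (3 samples) or 24 h (3 samples) and compared each sample with cells given the solvent DMSO on its own 2-colour array, Cy5 marking the treated cells and Cy3 the control, per the labels. All groups share the cell line and the DMSO comparison, and the dyes were never exchanged, so a dye bias of a spot and the treatment cannot be told apart. Values are log2 ratios of the 2 channels, centred on each array's median. The direction, MLN120B over DMSO, is likely and not stated in the sources, and if it were turned all signs would reverse. Being ratios, they show whether a gene changed and not whether it was expressed, so the plasma cell label could not be checked by marker levels. In bulk RNA, fewer cells expressing a gene and less of its RNA per cell cannot be told apart.

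TNF family ligands act as trimers that gather their receptors at the cell surface. The receptors have no enzyme activity of their own. Many of them, though not all, recruit TRAF adaptors, which activate MAP3K kinases such as TAK1 (MAP3K7) or NIK (MAP3K14) and through them the IKK complex. The IKK complex with IKKβ frees the canonical NF-κB dimers, whereas NIK with IKKα drives the alternative pathway. Several genes of the family are textbook NF-κB targets, and plasma cells depend on BCMA (TNFRSF17), the receptor for the survival ligands APRIL (TNFSF13) and BAFF (TNFSF13B).

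No gene of the family passed the test against DMSO at any time. Of the 47 genes, 31 were measured at all 3 times on 2 or more arrays each and entered a limma fit over 5411 rows; 0 of 31 had a Benjamini-Hochberg adjusted p under 0.05 over the 3 times, at 8 h, at 12 h or at 24 h, the background in each being 0% of rows. At an unadjusted p under 0.05, 2 of 31 (6.45%) stood out over the 3 times against 3.4% of all rows: TNFRSF17, above 0, and CD70, the ligand of CD27, below 0. For 29 of the 31 the 95% interval of the mean lay between -1 and 1, CD70 (-1.85 to -0.029) and CD27 (-0.39 to 1.10) being the exceptions. With the database run, described next, as a random block it did so for 28, TNFRSF11B reaching 1.15, and the interval of CD70 then held 0 (-1.90 to 0.12; unadjusted p = 0.077 in limma). The median of the 31 means was -0.087 beside -0.0077 for all rows, and 21 of 31 means lay below 0, where 51.6% of all rows did.

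**Figure D1:**
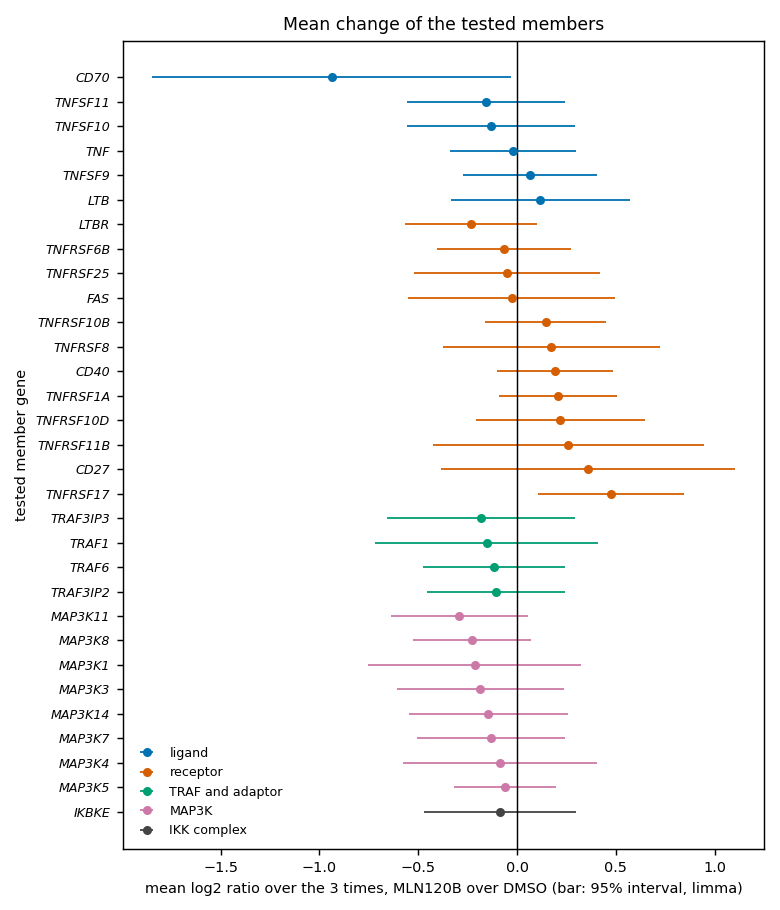
Mean log2 ratio of each of the 31 tested genes over the 3 treatment times, MLN120B over DMSO, with 95% intervals from limma as bars and the role of the gene as colour. The intervals of TNFRSF17 (0.11 to 0.84) and CD70 (-1.85 to -0.029) leave out 0, and all 8 MAP3K means lie below it (6 of 8 after quantile or scale normalization).

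Arrays differed in spread, and the family followed them. The database numbers in the labels fall into 3 runs, each with at most 1 array per time: run 1 consists of the third sample of the 12 h and 24 h groups, run 2 of the 8 h sample numbered 2 with the later samples numbered 1, and run 3 of the 8 h sample numbered 1 with the later samples numbered 2. The series' text mentions 3 timecourses, but no label ties a sample to one. The 3 arrays of run 2 had SDs over features of 1.42, 1.31 and 1.00, against 0.21 to 0.58 on the others, and held values for 41, 30 and 22 of the 47 genes. In run 2, 24 of 93 values of the family (25.8%) exceeded 1 in size, beside 22.1% for all genes; the counts were 2 of 81 in run 1 and 0 of 139 in run 3. For the genes described in full the mean without run 2 is given where it moves by over 1.5 times or turns, and the part of array quality in the results was not tested.

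**Figure D2:**
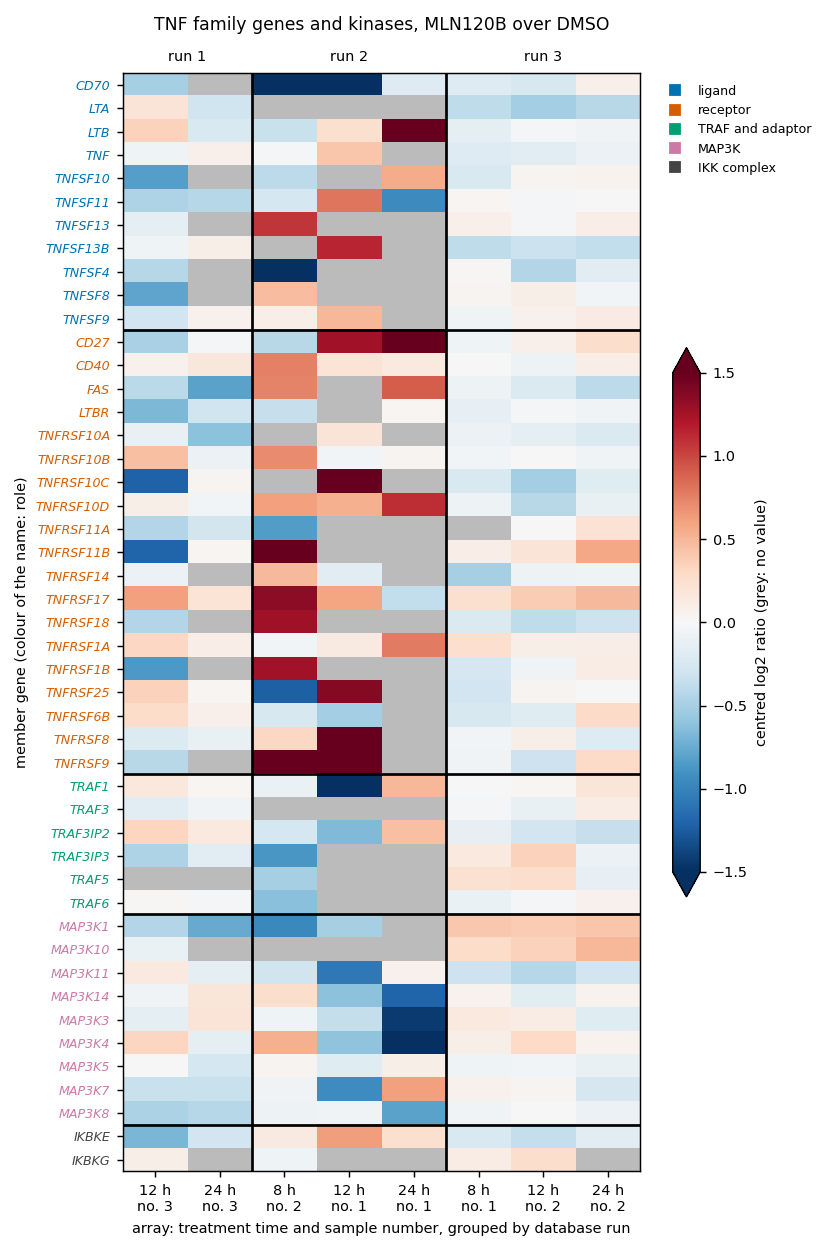
Centred log2 ratio of each of the 47 genes (rows, grouped by role) on each of the 8 arrays (columns, grouped by database run and labelled with treatment time and sample number). Colours saturate at 1.5 in either direction and grey marks no value; the deep colours fall mostly in the 3 columns of run 2.

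Promoters of 37 of the 47 genes were found in the RefSeq promoter table (GRCh38.p14). The genes without an entry were not searched, among them the tested genes TNFRSF17, CD70, CD40, TNFRSF10B, TNFRSF10D, TNFRSF11B and MAP3K1. For the 37, the 250 bases before each gene's start were searched on both strands for the 10-base NF-κB consensus, since the inhibitor acts on NF-κB activation. It occurred in 6 of the 37 (16.2%), against 5.05% of 27305 promoters of the same length: LTB, TNFRSF9, TNFRSF14, TRAF3, MAP3K8 and MAP3K11. No other motif was searched. The match in MAP3K11 read GGGAACTCCC, beginning 171 bases before the start, and that in TNFRSF14 read GGGGCTCCCC, beginning 84 bases before it. Of the others, which cover a ligand, a receptor, an adaptor and a kinase, the windows follow, 5′ to 3′ on the gene's strand, with the match in capitals. LTB lies at chr6:31582426-31582675 (minus strand, match 86 bases before the start), TNFRSF9 at chr1:7940840-7941089 (minus strand, 2 overlapping matches at 74 and 73 bases), TRAF3 at chr14:102777199-102777448 (plus strand, 33 bases) and MAP3K8 at chr10:30433771-30434020 (plus strand, 29 bases).
LTB: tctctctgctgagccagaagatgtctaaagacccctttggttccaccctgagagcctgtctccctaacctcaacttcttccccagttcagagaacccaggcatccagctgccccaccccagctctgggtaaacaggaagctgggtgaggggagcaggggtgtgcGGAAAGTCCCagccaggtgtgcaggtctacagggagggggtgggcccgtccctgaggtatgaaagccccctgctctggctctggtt
TNFRSF9: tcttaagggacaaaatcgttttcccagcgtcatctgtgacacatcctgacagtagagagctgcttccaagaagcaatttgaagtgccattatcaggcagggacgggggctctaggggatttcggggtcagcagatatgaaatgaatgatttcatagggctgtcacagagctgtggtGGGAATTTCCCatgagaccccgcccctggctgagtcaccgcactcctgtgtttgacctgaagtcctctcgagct
TRAF3: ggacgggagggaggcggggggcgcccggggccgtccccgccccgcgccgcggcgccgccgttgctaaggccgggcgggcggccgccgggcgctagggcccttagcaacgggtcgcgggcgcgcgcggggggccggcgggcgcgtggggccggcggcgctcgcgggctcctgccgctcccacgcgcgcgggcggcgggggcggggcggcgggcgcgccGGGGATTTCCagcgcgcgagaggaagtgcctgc
MAP3K8: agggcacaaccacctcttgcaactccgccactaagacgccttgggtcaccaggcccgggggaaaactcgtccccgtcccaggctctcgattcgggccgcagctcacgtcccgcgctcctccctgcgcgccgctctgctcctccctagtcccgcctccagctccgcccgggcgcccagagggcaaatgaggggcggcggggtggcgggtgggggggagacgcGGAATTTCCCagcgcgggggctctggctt
With all 8 arrays, the 3 tested genes with a match had no common direction. LTB had a mean above 0 (0.12), and MAP3K8 (-0.23) and MAP3K11 (-0.29) had means below 0. Without run 2 these genes were at -0.044, -0.18 and -0.22, all below 0, so the sign of LTB rested on run 2. Of the 21 tested genes whose window held no match, 17 had means below 0, with a median of -0.088. A match is a description of these letters and not evidence of binding.

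TNFRSF17 had the highest mean of the 31 tested genes. BCMA, its product, marks plasma cells and transmits their survival signals. Its log2 ratios were 0.24 and 1.34 at 8 h (samples 1 and 2), 0.59, 0.38 and 0.61 at 12 h, and -0.36, 0.48 and 0.21 at 24 h (samples 1, 2 and 3). It was above 0 on 7 of 8 arrays, the exception being sample 1 at 24 h of run 2. Among genes measured on 4 or more arrays it ranked at the 93.3 percentile in the median over arrays, and at the 92.6 percentile or higher on 5 of the 8. The mean was 0.48 ± 0.16 (SE, n = 8; unadjusted p = 0.017, adjusted p = 0.87 in limma), which does not pass. That fit treats the arrays of a run as independent. With the database run as a random block the mean was 0.48 ± 0.21 (interval 0.0055 to 0.96, unadjusted p = 0.048 in limma). Its 2 features gave 0.42 and 0.53, and the run means were 0.41, 0.52 and 0.37 for runs 1, 2 and 3. Without run 2 it was at 0.36.

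TNFRSF1A, the main TNF receptor, was the other gene of the family above 0 on at least 7 of 8 arrays. That pattern held for 2 of the 18 genes with 8 values, against 6.24% of all rows with 8 values. Values were 0.26 and -0.036 at 8 h, 0.13, 0.091 and 0.31 at 12 h, and 0.78, 0.10 and 0.10 at 24 h. They overlapped between times and were small in all 3 runs (means of 0.21, 0.29 and 0.15). Its mean was 0.21 ± 0.13 (SE, n = 8; adjusted p = 0.87). The second TNF receptor, TNFRSF1B, had 5 values: 1.26 at 8 h in sample 2, -0.86 at 12 h in sample 3, and between -0.25 and 0.12 in the rest.

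CD40, which receives T cell help in B cells, was near 0 on most arrays: -0.011 and 0.76 at 8 h, 0.21, -0.074 and 0.066 at 12 h, and 0.15, 0.10 and 0.17 at 24 h. The highest value, 0.76 on sample 2 at 8 h, averaged features at 3.11, 0.01, -0.06 and -0.02, so a single spot made it. The 0.21 on sample 1 at 12 h averaged features at -0.36, 2.62 and -1.63. The gene's mean was 0.19 ± 0.13 (SE, n = 8), and 0.041 without run 2. Of its 5 features, the 3 with enough values to be fitted had lower means, 0.055, 0.095 and -0.061. LTBR, the lymphotoxin β receptor, which signals to NIK, was at -0.12 and -0.35 at 8 h, -0.026 and -0.68 at 12 h (samples 2 and 3), and 0.033, -0.057 and -0.30 at 24 h. It lay below 0 on 6 of 7 arrays, in every run on average (-0.49, -0.16 and -0.07), at a mean of -0.23 ± 0.14 (SE, n = 7, adjusted p = 0.87 in limma). Of its 6 features, the 2 with enough values to be fitted had smaller means, -0.044 and -0.10. Each of these had values on either side of 0.

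The death receptors did not move together. FAS was at -0.076 and 0.74 at 8 h, -0.22 and -0.41 at 12 h (samples 2 and 3), and 0.90, -0.39 and -0.81 at 24 h; the 2 values above 0 both came from run 2, and the mean went from -0.026 ± 0.23 (SE, n = 7) to -0.33 without it. TNFRSF10B, the TRAIL receptor DR5, ranged from -0.087 to 0.71 over 8 arrays with 4 above 0, at a mean of 0.15, or 0.037 without run 2. TNFRSF10D, a decoy receptor for TRAIL, was at -0.076 and 0.62 at 8 h, 0.54, -0.41 and 0.092 at 12 h, and 1.11, -0.11 and -0.047 at 24 h. All 3 values over 0.5 came from run 2, and its mean was 0.22 ± 0.19 (SE, n = 8) with run 2 and -0.11 without it. TNFRSF10A, the TRAIL receptor DR4, had 6 values from -0.62 to 0.19, 5 of them below 0, and TNFRSF10C, another decoy, 6 values from -1.21 to 1.61.

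TNFRSF11B, which encodes the soluble RANKL decoy osteoprotegerin, was at 0.094 and 1.86 at 8 h, 0.20 and -1.20 at 12 h (samples 2 and 3), and 0.58 and 0.023 at 24 h (samples 2 and 3). It lay above 0 on 5 of 6 arrays, but its mean of 0.26 ± 0.29 (SE, n = 6) turned to -0.035 without sample 2 at 8 h, its 1 value in run 2. TNFRSF25, the receptor DR3, was at -0.29 and -1.22 at 8 h, 1.38, 0.042 and 0.35 at 12 h, and -0.0060 and 0.032 at 24 h (samples 2 and 3). All values at 8 h lay below 0 and all at 12 h above it. The difference of 1.35 ± 0.48 (SE, 5 arrays; unadjusted p = 0.024, adjusted p = 0.99 in limma) did not pass, and the values farthest from 0, 1.38 and -1.22, were those of run 2; the mean over the 3 times was -0.052 ± 0.20, and -0.029 without run 2.

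Of the other receptors, TNFRSF9, the costimulatory receptor 4-1BB, held the largest values of the family. It was at -0.049 and 4.68 at 8 h, -0.32 and -0.42 at 12 h for samples 2 and 3, 5.36 at 12 h for sample 1, and 0.29 at 24 h (sample 2). The 2 extreme values came from run 2 and each from a single spot, a different one on each array; on the other 4 arrays the gene lay between -0.42 and 0.29. With 1 value at 24 h it was not tested. TNFRSF8 (CD30), TNFRSF6B, TNFRSF14, TNFRSF18 and TNFRSF11A (RANK) had 5 to 7 values each and lay on both sides of 0; the highest were 1.72 for TNFRSF8 (sample 1 at 12 h) and 1.28 for TNFRSF18 (sample 2 at 8 h), both in run 2. Of the tested pair among them, TNFRSF8 went from a mean of 0.17 to -0.084 without run 2, and TNFRSF6B from -0.067 to -0.0048.

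CD70 had the lowest mean of the tested genes. It is the ligand of CD27, a costimulatory pair of activated lymphocytes. Its values were -0.19 and -3.13 at 8 h, -2.53, -0.24 and -0.50 at 12 h, and -0.20 and 0.075 at 24 h (samples 1 and 2). It lay below 0 on 6 of 7 arrays, and 2 arrays of run 2 stood far from the rest. The mean was -0.94 ± 0.39 (SE, n = 7; unadjusted p = 0.045, adjusted p = 0.87 in limma), -0.45 without sample 2 at 8 h and -0.16 without run 2. A single feature measured it.

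CD27 itself was at -0.063 and -0.41 at 8 h, 1.26, 0.081 and -0.49 at 12 h, and 2.85, 0.26 and -0.025 at 24 h. The values over 1 were again those of run 2, and each rested on 1 of its 4 features. Its mean was 0.36 ± 0.33 (SE, n = 8; adjusted p = 0.87), 0.055 without sample 1 at 24 h and -0.050 without run 2. Outside run 2 the ligand and the receptor both stayed within 0.50 of 0.

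**Figure D3:**
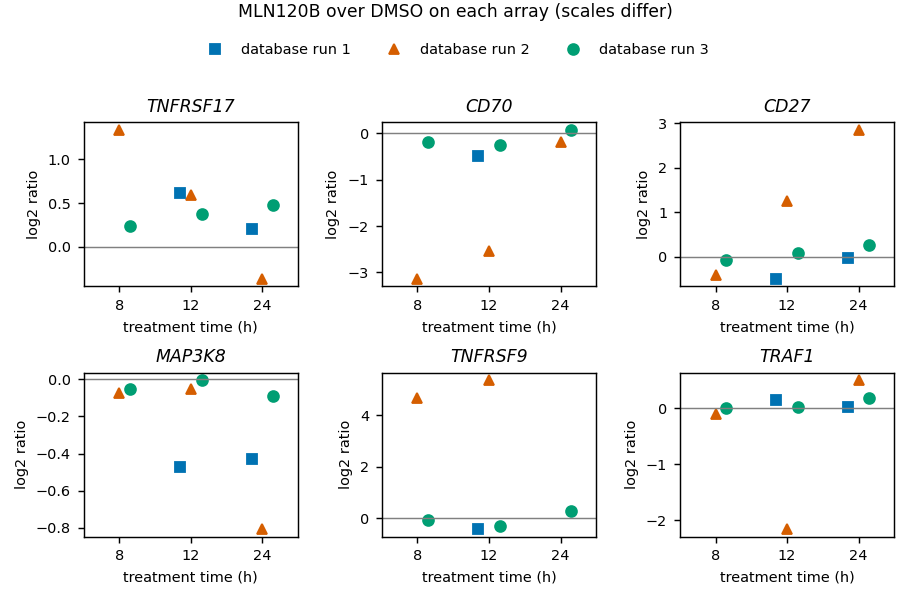
Log2 ratio (MLN120B over DMSO) of 6 genes on each array against treatment time, with the database run as marker and colour; vertical scales differ between panels. TNFRSF17 lies above 0 on 7 of 8 arrays and MAP3K8 below 0 on 8 of 8, whereas the extreme values of CD70, CD27, TNFRSF9 and TRAF1 come from run 2.

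TNF and lymphotoxin, ligands that are themselves NF-κB targets, did not pass. TNF was at -0.20 and -0.032 at 8 h, 0.41, -0.15 and -0.070 at 12 h, and -0.092 and 0.074 at 24 h (samples 2 and 3), with a mean of -0.020 ± 0.14 (SE, n = 7; interval -0.34 to 0.30), and -0.11 without run 2. LTB, the membrane anchor of lymphotoxin and holder of a consensus match, was at -0.15 and -0.33 at 8 h, 0.24, -0.033 and 0.34 at 12 h, and 1.52, -0.048 and -0.23 at 24 h. Times overlapped, 5 of 8 arrays lay below 0, and the mean of 0.12 ± 0.20 (SE, n = 8) turned to -0.065 without sample 1 at 24 h and to -0.044 without run 2. Its 7 features disagreed: the 4 with enough values to be fitted had means of -0.63, -0.037, 0.17 and 0.46.

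LTA, the soluble lymphotoxin, could not be tested because it had 1 value at 8 h. It was at -0.38 at 8 h, -0.52 and 0.20 at 12 h (samples 2 and 3), and -0.41 and -0.30 at 24 h (samples 2 and 3). Of its 5 values 4 lay below 0, and on the 3 arrays of run 3, where spread was small, it ranked at the 1.70, 0.41 and 2.49 percentiles of all genes. Run 2 held no value for it, and sample 3 at 12 h was on the other side at the 70.3 percentile. This was noticed after the values were seen.

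TNFSF11 (RANKL), the osteoclast factor of myeloma bone disease, was at 0.034 and -0.26 at 8 h, 0.81, -0.033 and -0.46 at 12 h, and -0.96, 0.0075 and -0.43 at 24 h, with a mean of -0.16 ± 0.18 (SE, n = 8). TNFSF10 (TRAIL), a death ligand, was at -0.23 and -0.39 at 8 h, 0.039 and -0.82 at 12 h (samples 2 and 3), and 0.56 and 0.051 at 24 h (samples 1 and 2), with a mean of -0.13 ± 0.18 (SE, n = 6). Both had values on either side of 0 at 12 h and 24 h. TNFSF9, the ligand of 4-1BB, ranged from -0.29 to 0.50 with 5 of 7 above 0, at a mean of 0.065, or -0.027 without run 2.

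The ligands of BCMA were not tested, for want of values. TNFSF13B (BAFF) was at -0.38 at 8 h, 1.14, -0.33 and -0.062 at 12 h, and -0.38 and 0.086 at 24 h (samples 2 and 3), all 3 arrays of run 3 lying at or below -0.33. TNFSF13 (APRIL) was at 0.071 and 1.08 at 8 h, -0.033 and -0.15 at 12 h (samples 2 and 3) and 0.10 at 24 h. TNFSF4 (OX40 ligand) had 5 values, 4 of them below 0, down to -2.28 on sample 2 at 8 h, and TNFSF8 (CD30 ligand) 5 values from -0.79 to 0.47.

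Outside run 2, all values of the TRAFs and adaptors lay within 0.47 of 0. TRAF1, a feedback adaptor that NF-κB induces in lymphocytes, was at 0.0097 and -0.094 at 8 h, -2.16, 0.027 and 0.16 at 12 h, and 0.50, 0.18 and 0.030 at 24 h. The low value averaged features at -8.85, 1.50 and 0.88 on that array, and without sample 1 at 12 h the mean went from -0.15 ± 0.25 (SE, n = 8) to 0.095, and without run 2 to 0.069. TRAF6, which links Toll-like and IL-1 receptors to TAK1, was at -0.10 and -0.63 at 8 h, -0.017 and 0.014 at 12 h (samples 2 and 3), and 0.068 and -0.030 at 24 h (samples 2 and 3), at a mean of -0.12 ± 0.15 (SE, n = 6), or -0.028 without run 2, which held the lowest value.

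TRAF3, the adaptor that marks NIK for destruction and that myelomas often lose, was at -0.014 at 8 h, -0.12 and -0.15 at 12 h (samples 2 and 3), and 0.12 and -0.052 at 24 h (samples 2 and 3); it was not tested. All 5 values lay within 0.16 of 0. TRAF5 had 4 values from -0.50 to 0.26. TRAF3IP2, the IL-17 receptor adaptor Act1, ranged from -0.66 to 0.45 with a mean of -0.10 ± 0.15 (SE, n = 8), or -0.064 without run 2. TRAF3IP3 ranged from -0.88, on sample 2 at 8 h of run 2, to 0.34; its mean of -0.18 ± 0.20 (SE, n = 6) was -0.013 without that array and -0.35 without sample 1 at 8 h.

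Over the 3 times the means of all 8 tested MAP3K genes were negative (median -0.17), and 0 of 8 passed; quantile or scale normalization left 6 of 8 negative. MAP3K8 encodes the kinase TPL2, which the NF-κB precursor p105 binds. The gene lay below 0 on every array: -0.053 and -0.073 at 8 h, -0.050, -0.0047 and -0.47 at 12 h, and -0.81, -0.090 and -0.43 at 24 h. It was the 1 gene of 36 with 6 or more values to keep a sign throughout, where 2.79% of all rows did. On 5 of the 8 arrays it was less than 0.10 from 0. Its single feature with values on all 8 arrays was above 0 on 3 of them (0.018, 0.028 and 0.17). The shared sign over all 8 arrays thus holds for the average of its features only. Another feature, with 6 values, stayed below 0 (-0.53 to -0.0355), and a further one, with 3 values, lay on both sides of 0. Its mean was -0.23 ± 0.13 (SE, n = 8; unadjusted p = 0.12, adjusted p = 0.87) and its mean at 24 h -0.44 ± 0.21 (SE, n = 3; unadjusted p = 0.068, adjusted p close to 1).

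MAP3K11, the JNK pathway kinase MLK3, was at -0.31 and -0.30 at 8 h, -1.07, -0.43 and 0.15 at 12 h, and 0.067, -0.28 and -0.15 at 24 h, with 6 of 8 below 0. Its mean, -0.29 ± 0.15 (SE, n = 8; unadjusted p = 0.090, adjusted p = 0.87), was the lowest of the kinases and -0.22 without run 2. MAP3K7, the kinase TAK1, was at 0.064 and -0.055 at 8 h, -0.94, 0.044 and -0.33 at 12 h, and 0.61, -0.25 and -0.33 at 24 h, at a mean of -0.13 ± 0.16 (SE, n = 8). Values at 12 h and 24 h spanned 0 for both.

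MAP3K14, the kinase NIK at the head of the alternative pathway, was at 0.055 and 0.27 at 8 h, -0.61, -0.17 and -0.049 at 12 h, and -1.20, 0.048 and 0.18 at 24 h. The 2 lowest values, both of run 2, set its mean of -0.15 ± 0.18 (SE, n = 8), which was 0.020 without run 2; its 2 features gave -0.25 and -0.046. MAP3K3, or MEKK3, was at 0.14 and -0.061 at 8 h, -0.36, 0.11 and -0.13 at 12 h, and -1.44, -0.18 and 0.19 at 24 h; its mean was -0.19 ± 0.19 (SE, n = 8) and 0.046 without run 2. MAP3K1, or MEKK1, was at 0.40 and -0.97 at 8 h, -0.50, 0.38 and -0.44 at 12 h, and 0.41 and -0.76 at 24 h (samples 2 and 3). Averaged over features, its signs followed the runs: about 0.40 on all 3 arrays of run 3, and -0.44 or lower on the 4 others. The features disagreed and were not all measured on each array. A feature with 5 values stayed below 0 (-1.84 to -0.16), also in run 3. Another, with 4 values, stayed above 0 (0.315 to 0.70), also in run 2. The mean of MAP3K1, -0.21 ± 0.23 (SE, n = 7), was 0.067 without run 2. MAP3K4, MAP3K5 (the stress kinase ASK1) and the untested MAP3K10 completed the group, with means over their arrays of -0.14, -0.066 and 0.26. The fitted mean of MAP3K4, -0.088 ± 0.22 (SE, n = 8), turned to 0.12 without run 2, and that of MAP3K5, -0.060 ± 0.11, was -0.091.

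Of the IKK genes, IKBKE, the IKK-related kinase of interferon signalling, was at -0.23 and 0.13 at 8 h, 0.63, -0.36 and -0.69 at 12 h, and 0.24, -0.17 and -0.28 at 24 h. The 3 arrays of run 2 lay above 0 and the 5 others below it. Its mean was -0.087 ± 0.17 (SE, n = 8; interval -0.47 to 0.30), and -0.33 without run 2 with no call. IKBKG, which encodes NEMO, the scaffold of the complex that MLN120B targets, was at 0.11 and -0.068 at 8 h and 0.26 and 0.091 at 12 h (samples 2 and 3), and was not tested for lack of values at 24 h.

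By role, the medians of receptors and ligands were positive in run 2 and negative in runs 1 and 3, whereas those of the MAP3Ks were negative in all 3 runs and lowest in run 2. In run 2 the receptors lay high: 3 of 19 run means were below 0, with a median of 0.52, where 49.6% of all genes were below 0 with a median of 0.0060. In the same run 8 of 8 MAP3Ks and 5 of 5 TRAFs and adaptors had run means below 0, with medians of -0.47 and -0.58. Its single arrays differed. For MAP3Ks, 5 of 8 values lay below 0 at 8 h, 8 of 8 at 12 h and 4 of 7 at 24 h. For TRAFs and adaptors the counts were 5 of 5, 2 of 2 and 0 of 2, with a median of 0.47 at 24 h. In run 3 the receptors had 13 of 19 below 0 (median -0.050; all genes 49.6% and 0.0013), and in run 1 12 of 19 (median -0.26; all genes 53% and -0.021). MAP3Ks in runs 1 and 3 had 6 of 9 and 5 of 9 below 0, with medians of -0.094 and -0.023.

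**Figure D4:**
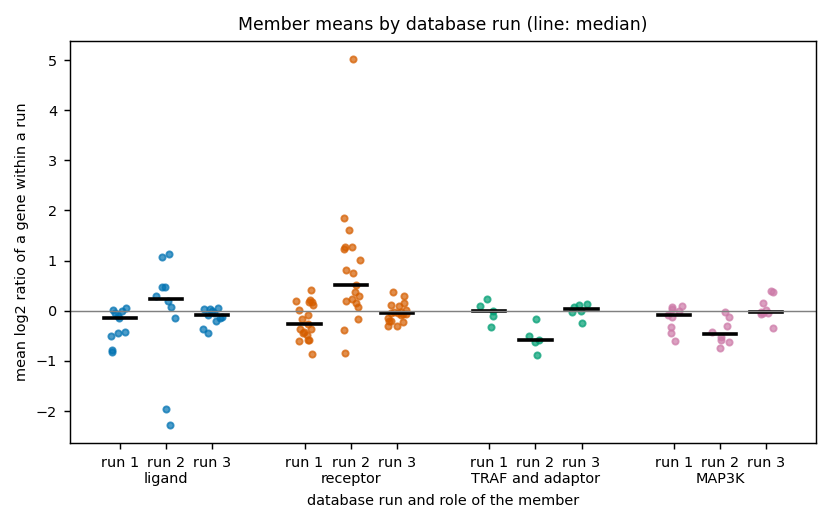
Mean log2 ratio of each gene within each database run (points; MLN120B over DMSO), by role, with the median as a black line; the IKK genes are not drawn. Receptors lie highest in run 2 (median 0.52) and MAP3Ks and TRAFs lowest there (medians -0.47 and -0.58), while the medians in runs 1 and 3 lie between -0.26 (receptors, run 1) and 0.034 (TRAFs, run 3).

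The means over all arrays carry this pattern. Of the 12 tested receptors 8 had positive means (median 0.18); without run 2, 4 did (median -0.032), and 6 after quantile normalization (median 0.027). The MAP3K count went from 8 of 8 below 0 to 4 of 8, with a median of -0.036, and was 5 of 8 with array weights. The 6 ligands had 4 means below 0 (median -0.076) and 6 without run 2 (median -0.12), and the 4 tested TRAFs and adaptors 4 and then 3. Without sample 3 at 12 h the ligand median turned to 0.0069. Spread between features of a gene was also widest in run 2: 1.14, 2.17 and 0.98 (SD within genes of the family) on its 3 arrays against 0.20 to 0.47 on the others.

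Genes whose run means shared a sign were CD70, TNFSF4, LTBR, TRAF6, MAP3K5, MAP3K7, MAP3K8 and MAP3K11, all below 0, and TNFRSF17, TNFRSF1A and CD40, above 0. These are 11 of the 43 genes with values in all 3 runs, and 20% of all genes did so. Some of the shared signs rested on run means near 0. MAP3K11 was at -0.0003 and TRAF6 at -0.0079 in run 1, and CD40 at 0.0051 in run 3. In run 2, TNFSF4 and TRAF6 were measured on a single array, sample 2 at 8 h. In run 3, the arrays with the least spread, their means ran from -0.34 for MAP3K11 to 0.37 for TNFRSF17.

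No gene of the family passed at a single time or between times. At 8 h 1 of 31 genes had an unadjusted p under 0.05 (TNFRSF17 at 0.79 ± 0.32, SE, n = 2) against 2.4% of rows, at 12 h 0 against 3.07%, and at 24 h 0 against 2.01%. The medians of the 31 genes were -0.048, -0.070 and -0.0087 at the 3 times. At 12 h the smallest p belonged to TNFRSF17 (0.53 ± 0.26) and TNFRSF25 (0.59 ± 0.31), and at 24 h to MAP3K8 and CD27 (1.03 ± 0.53; SE, n = 3). Between times, 1 of 31 had an unadjusted p under 0.05 for 12 h against 8 h (TNFRSF25; 1.18% of rows), 0 for 24 h against 8 h (0.813%) and 0 for 24 h against 12 h (0.684%). All adjusted p-values of these genes were 0.87 or above by limma, and 0% of all rows passed between any 2 times.

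Genes of the pathway outside the family's naming rule were read from lists for comparison, and 0 of them passed in either direction over the 3 times. Among NF-κB subunits and inhibitors 6 of 8 means were negative (median -0.42); NFKBIA, the inhibitor that NF-κB induces, was at -0.93 ± 0.14 and NFKB2 at -1.31 ± 0.33 (SE, n = 8), beside -0.94 for CD70, the lowest of the TNF family. In receptor-proximal signalling 11 of 19 were below 0 (median -0.037), led by the feedback deubiquitinase TNFAIP3 at -0.84 ± 0.18 and the caspase-8 inhibitor CFLAR at -0.60 ± 0.25. CFLAR was at -0.21 without sample 2 at 8 h, where it read -2.23, and TNFAIP3 at -0.58 without run 2. NFKB2 was at -0.55 without run 2 and NFKBIA at -0.97. The MAP kinases below the MAP3Ks had 11 of 22 below 0 (median -0.0088), and TNF family and TNF-induced genes under other names 3 of 6 (median 0.022). The largest means of both lists rested on single arrays of run 2. JUN, at -0.48 ± 0.46, and MAPK12, at -0.42 ± 0.35, were at 0.0060 and -0.053 without sample 1 at 12 h. FASLG, at 0.73 ± 0.49, was at -0.057 without sample 2 at 8 h, and TNFAIP1, at -0.54 ± 0.37, was at -0.18 without sample 1 at 24 h. Markers of plasma cells (median 0.14 over 9 genes), B cells (0.089 over 4), T cells (-0.057 over 6) and myeloid cells (0.14 over 4) gave 0 calls.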

How the data were processed

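RNA of 8 samples was measured on 2-colour arrays. The authors deposited 1 column per array of log2 ratios of the channels; how the authors corrected background, filtered spots and normalized is not given in the sources used here. Base 2 is assumed (values reach 12.4 in size). Array medians ran from -0.48 to 0.001, so each array was centred on its median. Of 15246 features, 10169 had 1 gene in the platform annotation; symbols were updated through RefSeq (GRCh38.p14), and features of a gene were averaged. Between arrays, correlations over features ran from -0.21 to 0.53.

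Rows measured on 2 or more arrays of each time (5411) were fitted with limma 3.58.1 in R 4.3.3. The fit had a mean per time, eBayes and 5 residual degrees of freedom. Each ratio was tested against 0, 2-sided, Benjamini-Hochberg adjusted over all rows, threshold 0.05. The fit was tried on simulated data whose rows had equal spread on all arrays and no correlation within runs. That trial therefore does not cover the unequal spread of these arrays. The ratio leaves out the control's own spread. Nothing says that samples came from separate cultures, so p-values may measure technical spread. The genes and lists were chosen with earlier results of these data known; the rule for named genes took the largest means of each role, pathway anchors, genes of 1 sign on every array and the smallest p at each time. Same-numbered samples at 12 h and 24 h deviated together (correlations of 0.20, 0.26 and 0.29), but at 8 h the numbers ran against the later times (-0.32 to -0.15), where arrays of the same database run deviated together (0.15 to 0.32); with 2 arrays at 8 h the one mirrors the other. All same-run pairs correlated above 0 (consensus correlation 0.26). Alternatives changed centring, normalization, filters, blocks, weights and the arrays used.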

Additional observations from a re-analysis of the deposited data

Results flagged for a closer look

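TNFSF13, which encodes APRIL, was on opposite sides of 0 at 8 h (0.071 and 1.08) and 12 h (-0.033 and -0.15), a difference of -0.66 between the means of 2 arrays each. The difference was not tested, and the higher value at 8 h came from an array of run 2. There it averaged features of opposite sign, -1.33 and 3.48. The value of -0.15 at 12 h (sample 3) came from the first of these features alone, which was thus higher at 12 h than at 8 h. The pattern therefore depends on which features had values on each array.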

How the results depend on the processing

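Of the 31 tested genes of the family, 0 passed the threshold under any of the 21 alternatives, and 15 kept their sign throughout, single features apart; for 7 of the 31, and for the 8 named pathway genes, these alternatives were chosen after seeing the data. TNFRSF17 ran from 0.29 to 0.66 (adjusted p 0.16 to 1.0). Leaving out 1 array moved 30 of the 31 means by over 1.5 times or turned the sign, MAP3K8 being the exception. Without centring, which moves the median of all rows to -0.12, the family's median was -0.19 over the 3 times, -0.25 at 12 h and -0.13 at 24 h; LTB was at -0.010 and TNFSF9 at -0.011. Over all rows, in place of 0 calls over the 3 times, quantile normalization gave 2, the run as a fixed block 3, and rows with 4 or more values 2 (10 at 8 h, 5 for 12 h against 8 h, 3 for 24 h against 8 h). Without run 3 the calls over all rows were 31 over the 3 times, 42 at 8 h, 2 at 24 h, 30 for 12 h against 8 h, 26 for 24 h against 8 h and 1 for 24 h against 12 h; without run 1 there was 1 at 12 h. With 1 array left out they ran from 0 to 50 over the 3 times, 0 to 125 at 8 h, 0 to 1 at 12 h, 0 to 2 at 24 h, 0 to 71 for 12 h against 8 h, 0 to 70 for 24 h against 8 h and 0 to 2 for 24 h against 12 h, the highest at 8 h without sample 1, where a lone array of run 2 is left and assumed to vary like the others. None of these calls was among the 31 tested genes of the family, and the cause was not tested. Untested genes of the family that entered with the filter of 4 or more values were not checked for calls.

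Signs turned for small means and for some larger ones, among them CD27 (0.36), FASLG (0.73), TNFAIP1 (-0.54) and JUN (-0.48). Quantile normalization put LTB at -0.040, TNFRSF10D at -0.041, MAP3K1 at 0.030, MAP3K4 at 0.055 and TNFRSF8 at -0.012; scale normalization put the first 4 at -0.023, -0.00050, 0.028 and 0.051. With the sample number as a replicate block TNFRSF11B was at -0.035 and TNFRSF25 at 0.017; the block changed no call. With the run as a fixed block TNF was at 0.0055 and FAS at 0.014. Array weights gave LTB -0.087, TNFRSF10D -0.021, TRAF1 0.017, MAP3K3 0.0026, MAP3K4 0.17, MAP3K14 0.018 and JUN 0.015. Without run 1, TNFSF10 was at 0.012, MAP3K1 at 0.023, FAS at 0.12 and IKBKE at 0.040. Without run 2, LTB was at -0.044, CD27 at -0.050, TNFRSF11B at -0.035, TNFRSF10D at -0.11, TRAF1 at 0.069, MAP3K1 at 0.067, MAP3K3 at 0.046, MAP3K14 at 0.020, MAP3K4 at 0.12, TNFRSF8 at -0.084, TNFSF9 at -0.027, FASLG at -0.18 and TNFAIP1 at 0.15. Without run 3, IKBKE was at 0.025, TNF at 0.071 and FAS at 0.13. Leaving out 1 array, ranges were -0.28 to 0.012 for TNFSF10, -0.065 to 0.23 for LTB, -0.035 to 0.55 for TNFRSF11B, -0.29 to 0.095 for TRAF1, -0.44 to 0.014 for MAP3K1, -0.21 to 0.0050 for IKBKE, -0.078 to 0.016 for TNF, -0.21 to 0.10 for TNFRSF25, -0.19 to 0.11 for FAS, -0.19 to 0.092 for MAP3K4, -0.025 to 0.30 for TNFRSF8, -0.0023 to 0.13 for TNFSF9, -0.057 to 1.52 for FASLG and -0.73 to 0.0060 for JUN. Of the pathway genes, NFKB2 passed with quantile normalization (-1.30, limma's adjusted p = 0.034). It also passed with the run as a fixed block at -1.25 (adjusted p = 0.038) and, leaving run 3 out, at -1.95 (adjusted p = 0.024), and FASLG without sample 1 at 8 h (1.52, adjusted p = 0.041). Single features opposite to the gene's mean were at -0.037 and -0.63 for LTB, 0.15 and 0.20 for TRAF1, 0.020 for TRAF6, 0.038 for TRAF3IP2, 0.024 for MAP3K3, 0.040 for IKBKE, 0.17 for TNF and -0.061 for CD40. The number of arrays limits the precision, and signal over background is unknown.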
